A study of Mus musculus with 122 samples.

Results

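Cell cycle and DNA replication genes were followed through every mutant and control group of a mouse study of C/EBPβ, a transcription factor encoded by Cebpb, in alveolar macrophages, which live in the air spaces of the lung. The 52 genes were taken by symbol from a list: 22 act in DNA replication and 30 in mitosis. All 52 were found among the 22050 genes of each of the 3 deposited count tables.

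Replication genes are read out as cells leave G1. E2f1 and the cyclins Ccne1 and Ccne2 drive that step, Cdc6 and Cdt1 load the MCM helicase (Mcm2 to Mcm7) onto origins, and Cdc45, Mcm10, Gins1 and Gins2 start and run the fork. Pcna is the sliding clamp of the DNA polymerases, Rrm1, Rrm2, Tyms, Tk1 and Dut make and guard the nucleotide pool, and Uhrf1 helps to copy DNA methylation. Mitosis genes peak later: the kinase Cdk1 with cyclins Ccna2, Ccnb1 and Ccnb2, the kinases Aurka, Aurkb, Plk1, Bub1 and Bub1b, the motors Kif11, Kif20a and Kif23, the kinetochore proteins Cenpa, Cenpe, Cenpf, Ndc80 and Nuf2, and the ubiquitin system of mitotic exit (Cdc20, Ube2c). Mki67 encodes the proliferation marker Ki-67, Top2a untangles sister DNA, and Birc5 (survivin) works with Aurkb. Adult alveolar macrophages are long-lived, largely resting cells that renew by local division, and fetal ones divide rapidly.

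RNA was measured by 3′ sequencing with MARS-seq barcoded primers in 99 libraries of cells sorted by flow cytometry, in 31 groups. Adult cells from lavage came from germline Cebpb+/+ and Cebpb-/- mice of mixed background in 2 sets. One set had 4 wild-type libraries and, from knockouts, 4 of CD11b low and 4 of CD11b high cells. The other had females of facility 1 (2 wild-type, 3 Cebpb+/-, 2 knockout), females of facility 2 (3 and 2) and males (2 and 2). Conditional knockouts, on C57BL/6, carried Cebpb flox/flox with LyzM-Cre on both alleles, expressed in myeloid cells (2 libraries, beside 2 of flox/flox mice without Cre), or with 1 copy of the CD11c-Cre transgene, expressed in CD11c+ cells (4, beside 3 with that Cre alone). Chimeras were lethally irradiated CD45.1/2 recipients of 33% wild-type CD45.1/1 and 66% CD11c-Cre Cebpb fl/fl CD45.2/2 marrow, and donor cells of both kinds were sorted from whole lung after 5 weeks (3 wild-type, 4 knockout) and 10 weeks (4 and 3), so that both genotypes shared their hosts but not their strain. Lip/Lip mice of mixed background gave 8 libraries, 4 of CD11b low and 4 of CD11b high cells, and Lip+/+ mice 3. From fetal lung of embryonic day 18 (E18) came premature alveolar macrophages of Cebpb+/+ (3), Cebpb-/- (4), Csf2rb+/+ (4) and Csf2rb-/- (3) mice, Csf2rb encoding the common β chain of the GM-CSF receptor, and Ly6C high monocytes of Cebpb+/+ (3) and Cebpb-/- (4) mice. Another table held adult RNA libraries made for the ATAC-seq experiment: 3 Cebpb wild-type, 3 knockout, 4 Lip wild-type and 4 Lip. The labels do not say that each library came from a separate animal, so the p-values measure only the spread between these libraries.

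Depth ran from 642269 to 17834909 counts per library, and the 52 genes together held 429 to 28093 counts, so the rarest of them were near the floor of 3 counts (0.168 to 4.67 CPM) in shallow libraries. CPM are counts scaled to equal library size, here with TMM factors within 1 experiment, and folds are log2 fold changes ± standard error (SE) from edgeR, with Benjamini-Hochberg adjusted p over all genes tested. Cebpb was lower in all 9 adult deletions, by 2.95 (LyzM-Cre) to 5.34 (5-week chimeras) on the log2 scale, and by 4.20 and 5.22 in the E18 cells. Csf2rb fell by 1.62 in the Csf2rb-/- cells. Summed alveolar macrophage markers (Siglecf, Marco, Car4, Chil3 and 6 others) fell outside the control range in every knockout group: 2120 to 2920 CPM in CD11b low knockout cells against 8740 to 10900, 12400 to 19000 against 42400 to 45000 with CD11c-Cre, and 66.1 to 158 against 1620 to 1940 at E18. Markers of other cells moved too: dendritic cell markers summed to 2160 to 3870 against 497 to 649 CPM in 5-week chimeras and 346 to 784 against 14.6 to 18.6 at E18 (Xcr1 at 0), and neutrophil markers to 323 to 396 against 49.2 to 71.2 with CD11c-Cre. Their part in the results was not tested. In bulk RNA, fewer dividing cells and less of a transcript in each dividing cell cannot be told apart. Adult wild-type replicate 1 stood apart from its 3 fellows, with Mki67 at 17.4 CPM against 108 to 128, and CD11b low knockout, E18 Csf2rb-/- and ATAC-set knockout groups each held 1 library with high mitosis genes. These are named where they bear on a value. Counts of called genes with a library left out are given below without the count over all genes, which can move with them.

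The promoters of 6 members are shown as examples of the letters that differ in frequency between replication and mitosis genes. Each line gives the 160 bases before the transcription start (RefSeq, GRCm38.p6), 5′ to 3′ on the gene's strand, with matched letters in capitals. The letters searched, on both strands, were E2F (TTTCCCGC, TTTGGCGC, TTTCGCGC, TTTGCCGC), the box CCAAT, the cell cycle homology region known as CHR, with the letters TTTGAA, and C/EBP (TTGCNNAAT, TTGCNNAAC, TTACNNAAT, TTACNNAAC), and forms of one motif can overlap.
Mcm5, chr8:75109349-75109508, plus strand: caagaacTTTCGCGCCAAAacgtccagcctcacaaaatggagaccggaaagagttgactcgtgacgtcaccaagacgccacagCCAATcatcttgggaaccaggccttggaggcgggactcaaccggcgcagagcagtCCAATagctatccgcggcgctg
Mcm6, chr1:128359706-128359865, minus strand: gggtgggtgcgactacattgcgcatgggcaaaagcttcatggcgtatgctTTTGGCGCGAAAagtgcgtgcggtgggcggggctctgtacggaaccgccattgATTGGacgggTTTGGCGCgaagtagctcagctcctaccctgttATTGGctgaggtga
Cdk1, chr10:69352913-69353072, minus strand: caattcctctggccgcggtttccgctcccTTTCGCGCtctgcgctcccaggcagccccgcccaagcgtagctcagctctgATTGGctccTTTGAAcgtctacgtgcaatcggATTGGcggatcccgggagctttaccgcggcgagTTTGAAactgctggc
Cdc20, chr4:118437344-118437503, minus strand: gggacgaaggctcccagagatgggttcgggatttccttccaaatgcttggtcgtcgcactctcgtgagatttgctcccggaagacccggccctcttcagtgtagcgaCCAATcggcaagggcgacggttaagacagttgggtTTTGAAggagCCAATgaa
Ube2c, chr2:164769769-164769928, plus strand: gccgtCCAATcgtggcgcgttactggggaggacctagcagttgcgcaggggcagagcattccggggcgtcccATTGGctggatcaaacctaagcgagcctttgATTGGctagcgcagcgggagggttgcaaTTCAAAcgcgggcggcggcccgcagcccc
Top2a, chr11:99024190-99024349, minus strand: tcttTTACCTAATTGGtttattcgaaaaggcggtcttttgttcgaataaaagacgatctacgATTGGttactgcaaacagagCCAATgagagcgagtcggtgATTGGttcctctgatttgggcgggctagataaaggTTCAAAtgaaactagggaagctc

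Mcm5 and Mcm6 hold overlapping E2F letters and no CHR, Cdc20, Ube2c and Top2a hold a CHR within 29 bases of the start, with CCAAT boxes, and Cdk1 holds both kinds. Over windows of 300 bases around the start, found for 42 of the 52 genes (20 windows of replication and 25 of mitosis genes, since some genes have more than 1), E2F letters stood in 7 of 20 replication windows (35%) and 1 of 25 mitosis windows (4%), beside 4.07% of the windows of all tested genes. CHR letters stood in 18 of 25 mitosis windows (72%), 2 of 20 replication windows (10%) and 12.1% of all. CCAAT was found in 65% and 80%, beside 37.8% of all. The C/EBP letters were found in 1 window of each class (Mcm3 and Top2a), beside 5.86% of all. A match is a match of letters, not a site.

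**Figure D1:**
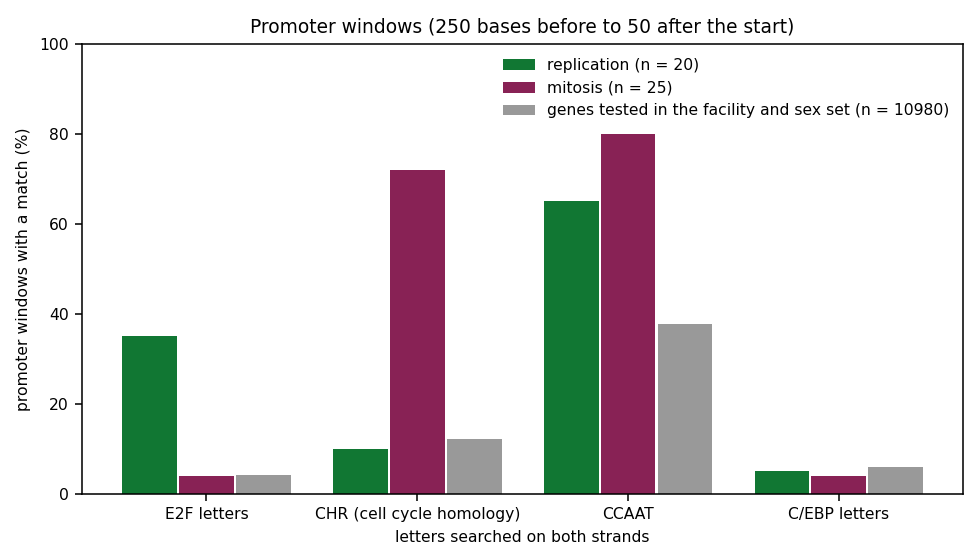
Percentage of promoter windows (y axis) that hold the letters of each motif (x axis), for 20 replication windows, 25 mitosis windows and all tested genes. E2F letters are frequent in replication windows and CHR letters in mitosis windows, while C/EBP letters are as rare in both as in all tested genes.

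C/EBPβ binding had been mapped by ChIPmentation in 2 samples of wild-type lavage macrophages, with peaks called per sample. A peak lay within 10 kb of the gene in both samples for 12 of 22 replication genes (54.5%) and 9 of 30 mitosis genes (30%), beside 61.2% of tested genes. On the promoter window itself, 8 of the 42 genes with a window (19%) had a peak in both samples, beside 20.3% of tested genes: Cdt1, Mcm3, Pcna, Mki67, Bub1b, Prc1, Ube2c and Hmgb2. The Mcm3 peak of the first sample was at chr1:20819890-20820872 (GRCm38/mm10), with the authors' fold over background of 27.1 and a summit 116 bases from the start. At Ube2c the peak was at chr2:164769462-164770075, over the sequence shown above, with a fold of 12.4. In macrophages cultured with CSF2 and IFNα, ATAC-seq found an open region on 40 of 42 member promoters in both Mx-Cre controls (95.2%, beside 87.2% of tested genes) and on 39 of 42 in all 3 Mx-Cre Cebpb flox/flox cultures (92.9%, beside 81.8%). The exception among those open in the controls was Mki67, which had no peak in 1 of the 3 knockout cultures.

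Across the 9 adult deletions measured in separate libraries (CD11b low germline knockouts, facility 1 females, facility 2 females, males, the ATAC-set knockout, LyzM-Cre, CD11c-Cre, and chimeras at 5 and 10 weeks), no replication or mitosis gene of the list was called higher in any. Ube2c was called lower in 9 of 9, Bub1b and Mki67 in 8, and Ccnb2, Cdk1, Kif23, Mcm5, Mcm7, Tk1 and Top2a in 7. Of the 51 genes tested in at least 1 of them, 27 were called lower in 5 or more (11 replication, 16 mitosis), beside 4.72% of 11747 genes. The list had been chosen with these results known. The least recurrent were Tyms, Mcm10 and Mybl2 (1 deletion each) and Cenpa, Nuf2 and Bub1 (2 each), and Kif11 passed the filter on low counts in none. The median log2 fold change over the deletions was -3.10 for Bub1b, -2.46 for Rrm2, -2.40 for Tk1, -2.03 for Top2a, -1.31 for Mcm5, -0.60 for Pcna and -0.27 for Cenpa. The median over all genes tested was within 0.1 of 0 in each comparison.

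**Figure D2:**
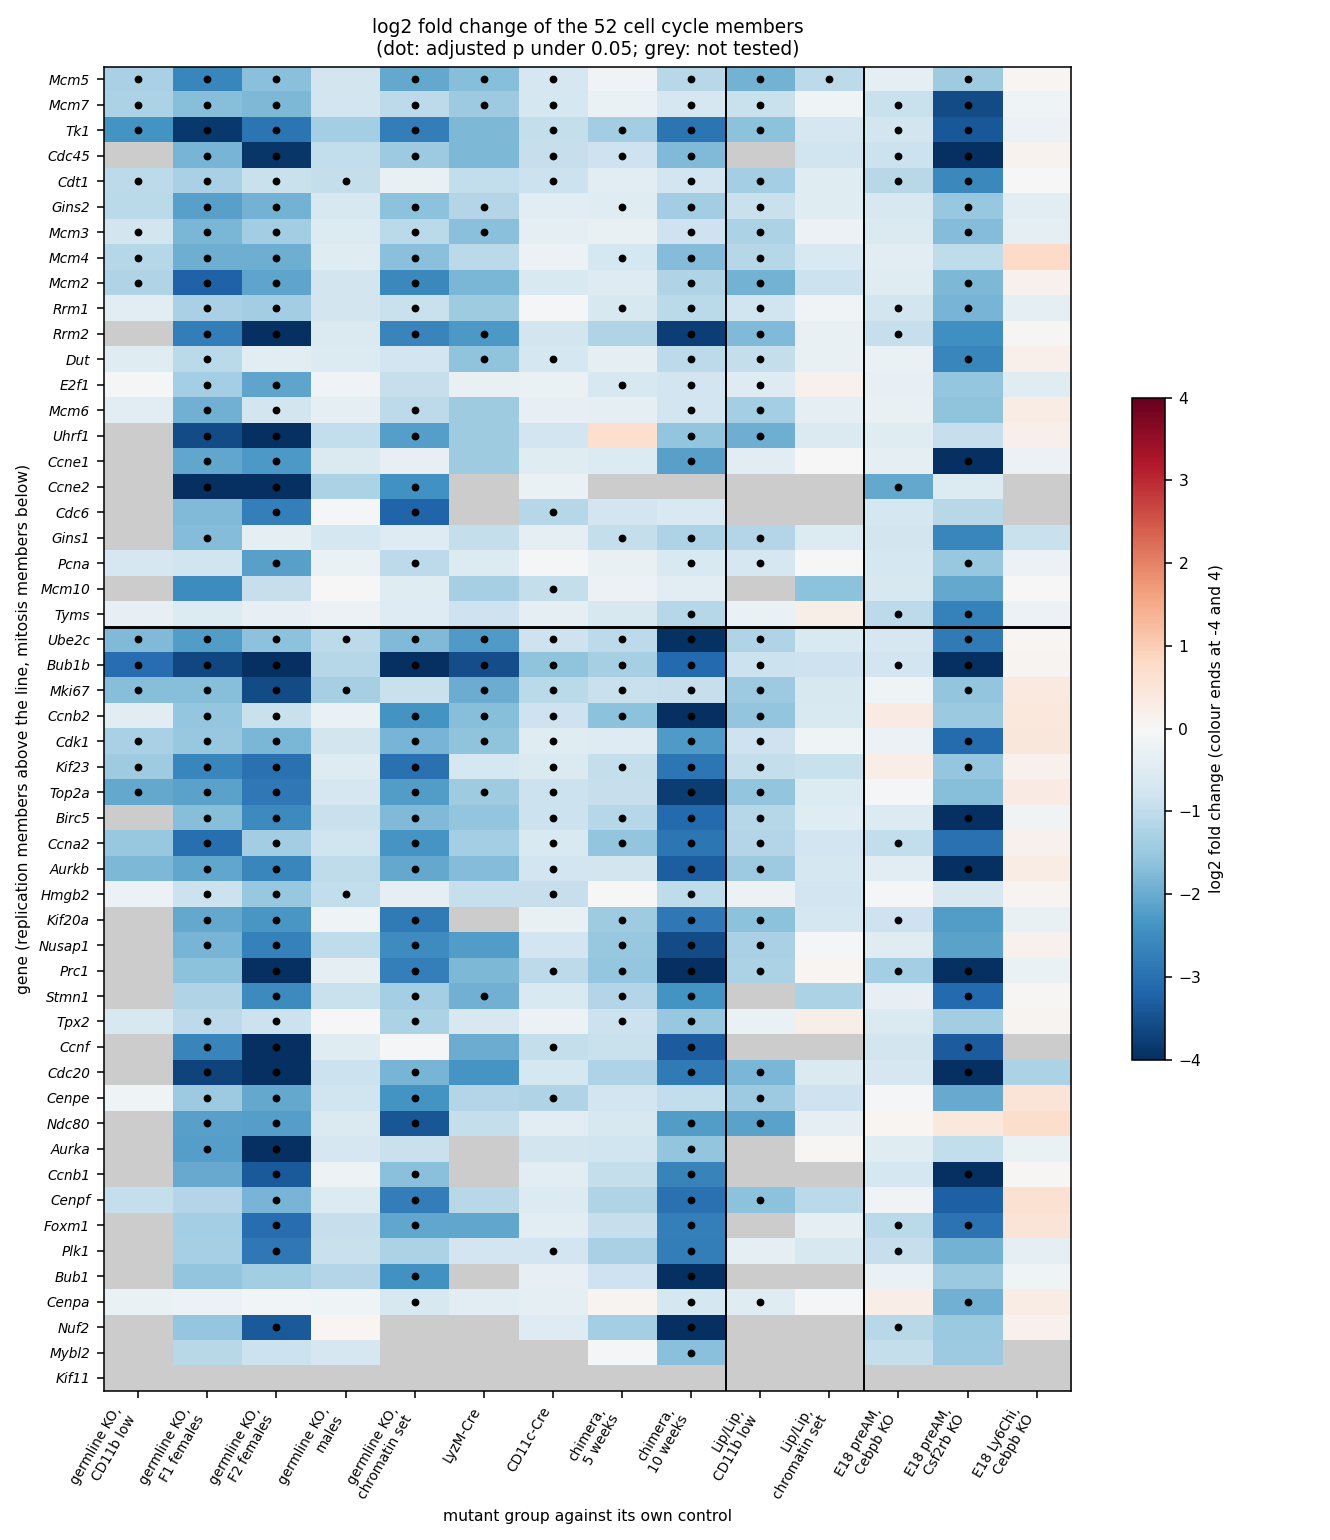
Log2 fold change of the 52 genes (rows, replication above the line and mitosis below) in 14 comparisons of mutant with control (columns), with a dot where the adjusted p was under 0.05 and grey where the gene was not tested. Adult columns are blue over most rows, the E18 Cebpb column is blue but paler than most of these, and the Ly6C high monocyte column has no dot.

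Summed over its class, the replication level in knockouts was 31.6% (facility 1 females) to 73.2% (CD11c-Cre) of control, and the mitosis level 23.8% (10-week chimeras) to 62.0% (males). In 8 of the 9 deletions the knockout libraries lay below all controls in both sums. In the CD11b low comparison the mitosis sums overlapped (228.8 to 486 against 238 to 810.4 CPM), through wild-type replicate 1. The ratio between classes was not constant: in facility 1 females the replication sum was the lower percentage of control (31.6% against 36.5%), in 10-week chimeras the mitosis sum (23.8% against 49.8%), and with LyzM-Cre they were alike (40.4% and 39.7%). These sums are a description without a test.

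**Figure D3:**
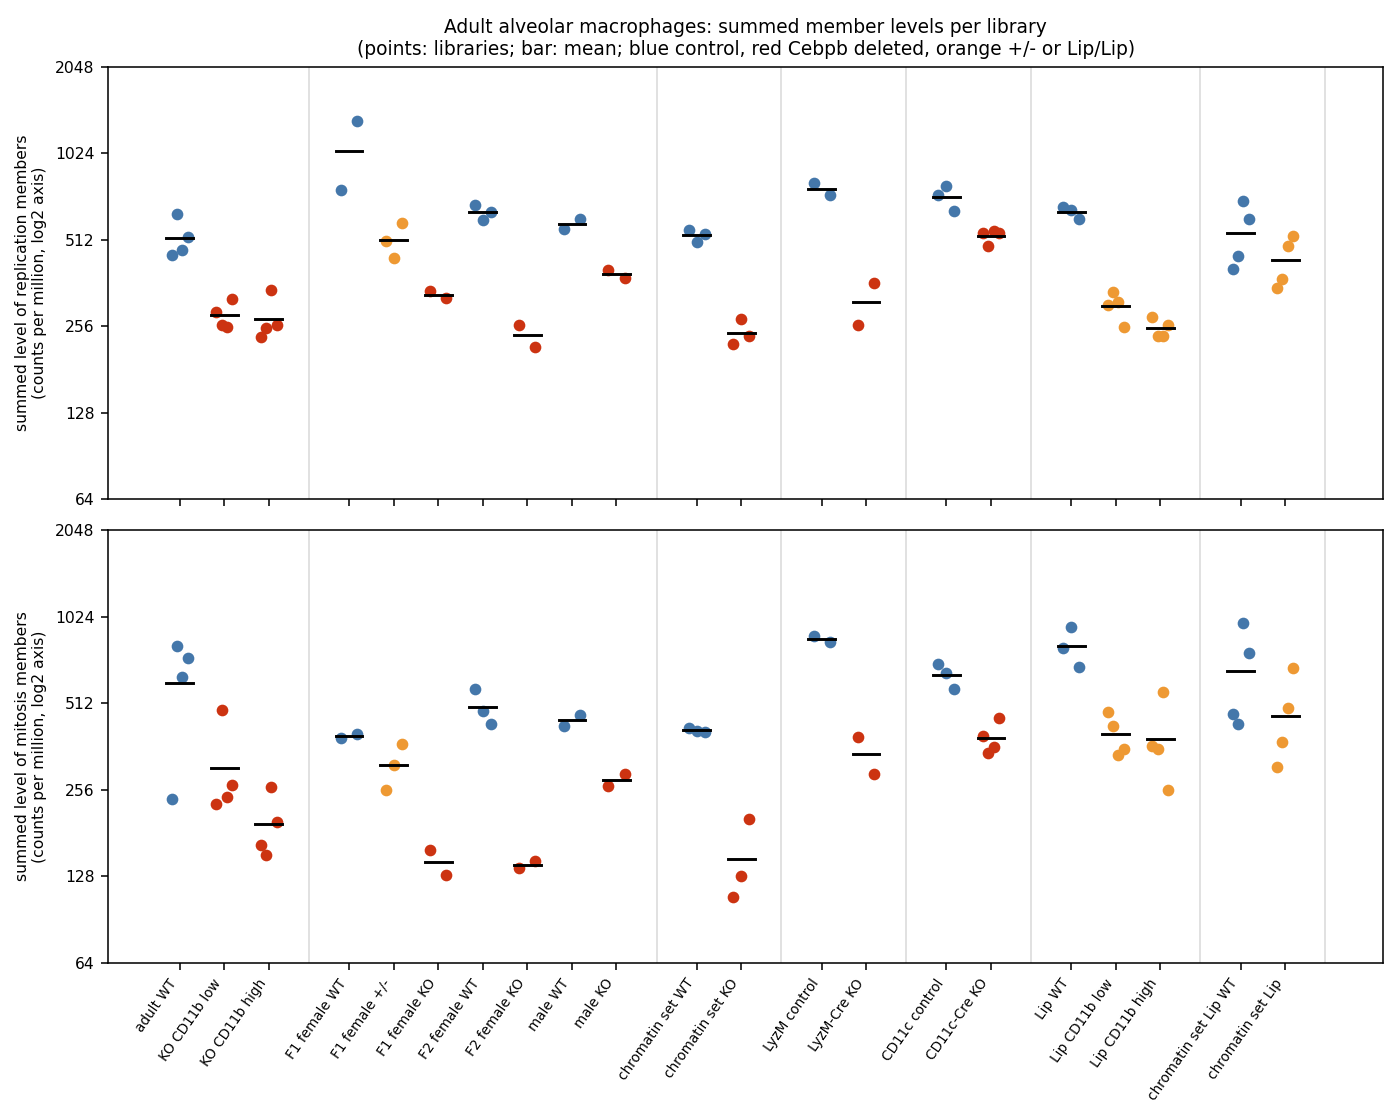
Summed CPM of replication and of mitosis genes (y axis, log2 scale) in each adult library (points) with the group mean (bar), by experiment, with control, Cebpb-deleted, and Cebpb+/- or Lip/Lip groups coloured apart. Deleted groups lie below their controls in each experiment, and the CD11b low mitosis sums overlap.

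The germline knockout was the first comparison, and its size differed between females and males. In facility 1 females 51 of the genes passed the filter and 37 were called lower (18 replication, 19 mitosis; median log2 fold change -1.82), beside 10.8% of 11040 genes tested. In facility 2 females 44 were called lower (18 and 26; median -2.19), beside 22.7%. In males 4 were called (Mki67, Ube2c, Hmgb2 and Cdt1; median -0.68), beside 3.76%, and 40 genes were lower in both knockout than in both wild-type libraries, beside 28.1% of all genes. A gene can pass the filter through its controls alone. Among the genes whose mean count level reached the filter in both groups, 27 of 34 were called lower in facility 1 females and 25 of 30 in facility 2 females. Averaged over the 3 strata, 48 of 51 fell (21 replication, 27 mitosis), beside 22.1% of all genes, and Mcm10, Cenpa and Mybl2 were not called.

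Tk1, the salvage kinase of thymidine, gave 27.5 and 41.9 CPM in facility 1 wild-type females, 11.3, 11.2 and 13.6 in Cebpb+/- females, and 2.70 and 2.00 in knockouts. The 3 genotypes did not overlap, and the knockout fell by 3.86 ± 0.49 (log2 ± SE, adjusted p = 1.64e-05). In facility 2 females Tk1 was at 22.6, 12.9 and 17.6 in wild type and 0 and 3.17 in knockouts (-2.93 ± 0.46, adjusted p = 6.08e-05). In males the values were 15.8 and 15.9 against 6.00 and 6.34, also without overlap, but the call was missed (log2 fold change -1.36, adjusted p = 0.0507).

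Of the MCM helicase genes, Mcm6 was at 63.5 and 132 CPM in facility 1 wild-type females, 33.2, 28.6 and 44.5 in Cebpb+/- and 23.6 and 28.0 in knockouts. The knockout change was -1.93 ± 0.29 there (adjusted p = 0.000113) and -0.75 in facility 2 females (adjusted p = 0.0328), where wild-type libraries read 37.7 to 47.6. Wild-type replicate 2 of facility 1 held the highest replication sum of the strata (1322 CPM beside 761 in replicate 1), and 28 genes were called without it and 33 without replicate 1 (a group left with 1 library is taken to vary like the other groups of the fit, here and below). Mcm5 fell in both female strata (-2.61 ± 0.39, adjusted p = 9.25e-05, and -1.69 ± 0.38, adjusted p = 0.0014), while in males it gave 25.1 and 32.4 against 20.0 and 14.9 (adjusted p = 0.251).

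Cebpb+/- females, compared with the same 2 wild-type libraries, kept Cebpb at a log2 fold change of -0.72 (adjusted p = 0.392). The calls were 4, beside 0.172% of genes called lower, and all were replication genes: Mcm3 (-1.44 ± 0.18, adjusted p = 0.000814), Mcm6 (-1.47 ± 0.25, adjusted p = 0.00958), Gins2 (-1.11) and Dut (-1.15), the enzyme that clears dUTP. The median was -1.03 over replication genes and -0.31 over mitosis genes. The number depended on single libraries: leaving out wild-type replicate 1 gave 8, and leaving out wild-type replicate 2 or Cebpb+/- replicate 2 gave 1.

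Mki67 fell in both female strata. It was at 21.3 and 28.3 CPM in facility 1 wild-type females and 9.35 and 5.79 in knockouts (-1.70 ± 0.34, adjusted p = 0.00121), and at 37.3, 28.1 and 28.5 against 3.85 and 2.12 in facility 2 (-3.58 ± 0.37, adjusted p = 5.13e-07). Knockout and wild-type libraries did not overlap in either. The difference between facilities was itself called for Mki67 (-1.89 ± 0.50, adjusted p = 0.0291) and Prc1, which bundles midzone microtubules, and for no other gene of the list. These 2 of 51 genes tested were near the 4.17% of all genes called lower. Prc1 had no count in either facility 2 knockout and 5.70 to 10.5 CPM in wild type, so it was at least 43.2-fold lower there. The 2 calls became 10 without facility 2 knockout replicate 1, and 1 without facility 1 knockout replicate 1, facility 1 wild-type replicate 2 or facility 2 wild-type replicate 1.

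Males differed from females by test. The male effect was less negative than the mean female effect for 18 genes (8 replication, 10 mitosis), beside 6.16% of genes in that direction. One was Rrm2, the regulated subunit of ribonucleotide reductase, with 7.33 and 12.0 CPM in wild-type males against 5.20 and 8.08 in knockouts, overlapping, where facility 2 females had 11.9 to 14.8 against 0.427 and 0 (difference 4.31, adjusted p = 0.00358). Bub1b (3.53), Tk1 (2.04), Top2a (1.83) and Mki67 (1.30) were others. Male mice have no facility in the labels, so sex and housing cannot be told apart. The 18 became 28 without facility 2 knockout replicate 1, 9 and 10 without male knockout replicate 1 or 2, and 7 without either male wild-type library, and the 4 calls in males fell to 1 or 2 without any 1 of the 4 libraries. Alveolar macrophage markers summed to 2480 to 2820 CPM in male knockouts, 920 to 1750 in facility 1 and 446 to 789 in facility 2 knockouts, and their part in the male result was not tested.

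In the set sorted by CD11b, 28 genes passed the filter, and 13 were called lower in CD11b low knockout cells (7 replication, 6 mitosis; median -1.05), beside 6.83% of 8502 genes tested. Among the 22 with counts above the filter in both groups, 9 were called (median -0.70). Top2a was at 20.1, 64.3, 58.2 and 67.3 CPM in wild type and 11.1, 26.0, 10.2 and 8.80 in knockouts (-2.03 ± 0.39, adjusted p = 0.000953). The groups overlapped only through wild-type replicate 1 at 20.1 and knockout replicate 2 at 26.0. Bub1b, a spindle checkpoint kinase, was at 13.4 to 32.9 in wild type and 0 to 10.4 in knockouts, without overlap (-3.04 ± 0.66, adjusted p = 0.00318). The count was 14 without wild-type replicate 1 and fell to 6 without wild-type replicate 2 or 3 or knockout replicate 3, 7 without wild-type replicate 4 and 8 without knockout replicate 1. CD11b high knockout cells, set against the same wild-type libraries, had 21 calls (9 replication, 12 mitosis; median -1.72), beside 11.8% of genes called lower. Only 14 genes had counts above the filter in both of these groups, and 8 of them were called (median -0.75). Mki67 in CD11b high cells was at 10.2 to 19.8 CPM and fell by 2.64 (log2, adjusted p = 0.000441). Between CD11b high and CD11b low knockout cells edgeR called none of the 28, beside 3.80% of genes (1072 of 8502 genes had an unadjusted p under 0.05), and DESeq2 called 1. The median was 0.04 over replication and -0.83 over mitosis genes, and -0.32 over the 4 mitosis genes with counts above the filter in both groups. The mitosis sums overlapped, at 151.4 to 262.2 CPM in CD11b high and 228.8 to 485.7 in CD11b low cells.

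The ATAC-set libraries had their own germline knockouts and controls. Of 49 genes that passed, 37 fell (15 replication, 22 mitosis; median -1.75), beside 12.6% of 10262 genes, and 19 of the 30 with counts above the filter in both groups. Mcm5 was at 38.3, 30.2 and 34.5 CPM in wild type and 5.85, 11.03 and 8.40 in knockouts (-2.04 ± 0.25, adjusted p = 0.000301). Bub1b gave 9.23, 11.6 and 16.9 against 0.627, 0.871 and 0.861 (-3.97 ± 0.42, adjusted p = 0.000121), and Ndc80 (-3.43) and Kif23 (-3) also fell. Mki67 did not follow: knockout replicates 1 and 2 were at 20.7 and 14.2 CPM and replicate 3 at 105, above the controls at 85.6 to 92.4 (adjusted p = 0.421). Without replicate 3 the number called was 37 as well. Erythroid markers summed to 701 to 1870 CPM in these knockouts beside 200 to 208 in wild type, neutrophil markers to 208 to 497 beside 47.5 to 59.5, and monocyte markers to 88.8 to 360 beside 20.9 to 49 (Fcnb at 0 in both), and their part was not tested.

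The conditional knockouts were compared with their own controls. The LyzM-Cre controls carried no Cre, so the presence of Cre and the loss of Cebpb cannot be told apart there. With LyzM-Cre, 43 genes passed and 13 were called lower (6 replication, 7 mitosis; median -1.44), beside 1.72% of 8654 genes. Among the 26 with counts above the filter in both groups, 9 were called (median -1.28). Mki67 was at 141 and 136 CPM in controls and 32.2 and 36.4 in knockouts (-1.99 ± 0.26, adjusted p = 0.00288), and Bub1b at 53.5 and 54.3 against 2.48 and 5.15 (-3.55 ± 0.38, adjusted p = 0.00121). Cenpa, the histone of centromeres, was not called, at 62.8 and 46.8 against 48.3 and 36.2. With 2 libraries a group the number of calls moved widely: 3 and 6 without control replicate 1 or 2, and 36 and 27 without knockout replicate 1 or 2. In each of these fits the spread came from the 1 group that still had 2 libraries.

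With CD11c-Cre, 50 genes passed, each with counts above the filter in both groups, and 23 were called lower (8 replication, 15 mitosis; median -0.65), beside 6.48% of 9992 genes. Mki67 was at 74.3, 47.8 and 44.2 CPM in controls and 33.2, 23.3, 20.4 and 27.9 in knockouts (-1.08 ± 0.21, adjusted p = 0.0032). Bub1b was at 33.0 to 47.6 against 7.20 to 27.5 (-1.61 ± 0.33, adjusted p = 0.00471), with knockout replicate 4 the highest, and the motor Cenpe and the origin factor Cdc6 had the next largest falls (-1.21 and -1.13). Mcm5 fell by 0.67 ± 0.14 (adjusted p = 0.00516), while Pcna was at 78.7 to 100.6 against 57.3 to 95.1 and was not called (-0.09, adjusted p = 0.786). The 23 fell to 10 or 11 without control replicate 1 or 2, and to 15, 11 and 14 without knockout replicate 1, 2 or 3.

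In the mixed chimeras wild-type and CD11c-Cre Cebpb fl/fl cells had developed in the same hosts, and their difference was larger at 10 than at 5 weeks for a part of the mitosis genes. At 5 weeks 19 of 50 genes were called lower (7 replication, 12 mitosis; medians -0.52 and -0.95), beside 10.5% of 11136 genes. At 10 weeks 47 of 50 were (19 and 28; medians -1.10 and -2.86), beside 21.1%, and 35 of the 37 with counts above the filter in both groups. In wild-type cells over the same weeks 2 genes fell (Mki67 by 0.75 and Cenpa by 0.62), beside 10.8% of genes called lower. In knockout cells 38 fell from 5 to 10 weeks (12 replication and 26 mitosis, medians -0.70 and -1.96), beside 15.7%. Among the 37 with counts above the filter at both times, 26 fell.

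Cyclin B2 (Ccnb2), a partner of Cdk1, was at 37.4, 29.4 and 31.7 CPM in 5-week wild-type cells and 12.6, 11.8, 11.6 and 6.15 in knockout cells, and at 35.5, 21.0, 25.3 and 28.3 against 4.02, 0.728 and 0.145 at 10 weeks. Groups did not overlap at either time, and the change went from -1.64 ± 0.38 (adjusted p = 0.00712) to -4.22 ± 0.53 (adjusted p = 1.92e-05). Top2a went from 29.4 to 34.7 against 12.9 to 23.2 at 5 weeks (not called, adjusted p = 0.103) to 14.8 to 45.11 against 0.145 to 3.22 at 10 weeks (-3.79 ± 0.52, adjusted p = 5.33e-05). Ube2c moved from -1.04 to -3.94, and Birc5 from -1.15 to -3.11.

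The difference between the 10-week and 5-week effects was tested gene by gene and called lower for 16 (4 replication, 12 mitosis), beside 5.97% of genes in that direction. Among them were Ube2c (-2.90 ± 0.54, adjusted p = 0.00319), Top2a (-2.86 ± 0.66, adjusted p = 0.0109), Ccnb2 (-2.58), Aurkb (-2.55), Birc5 (-1.95), Bub1b (-1.78), Cdk1 (-1.73) and Tk1 (-1.52). With the replicate number as a block within each week, 9 of the list were called, and of those named here Tk1 was lost. Mki67 was no part of it: the knockout effect was -0.90 at 5 weeks and -0.91 at 10 weeks (difference -0.02, adjusted p = 0.983), since its wild-type level fell too, from 26.3 to 30.7 CPM down to 12.2 to 24.1. Bub1 had no count in 10-week knockout cells and 0 to 1.54 CPM in wild type. The 16 became 30 without 10-week knockout replicate 1, 10 without 10-week wild-type replicate 4, and 9 without 5-week knockout or wild-type replicate 3. At 5 weeks the 19 fell to 10 or 11 without wild-type replicate 2 or 1 and to 12 or 11 without knockout replicate 2 or 4. The part of cell identity in this was not tested. Alveolar macrophage markers summed to 1330 to 1600 CPM in 5-week and 699 to 1810 in 10-week knockout cells, beside 3970 to 9070 and 15700 to 27100 in wild type, and Marco was at 0 in 5-week knockout cells. Dendritic cell markers, 2160 to 3870 CPM in 5-week knockout cells, summed to 317 to 1400 at 10 weeks, and in wild type to 497 to 649 and then 36.3 to 124.

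**Figure D4:**
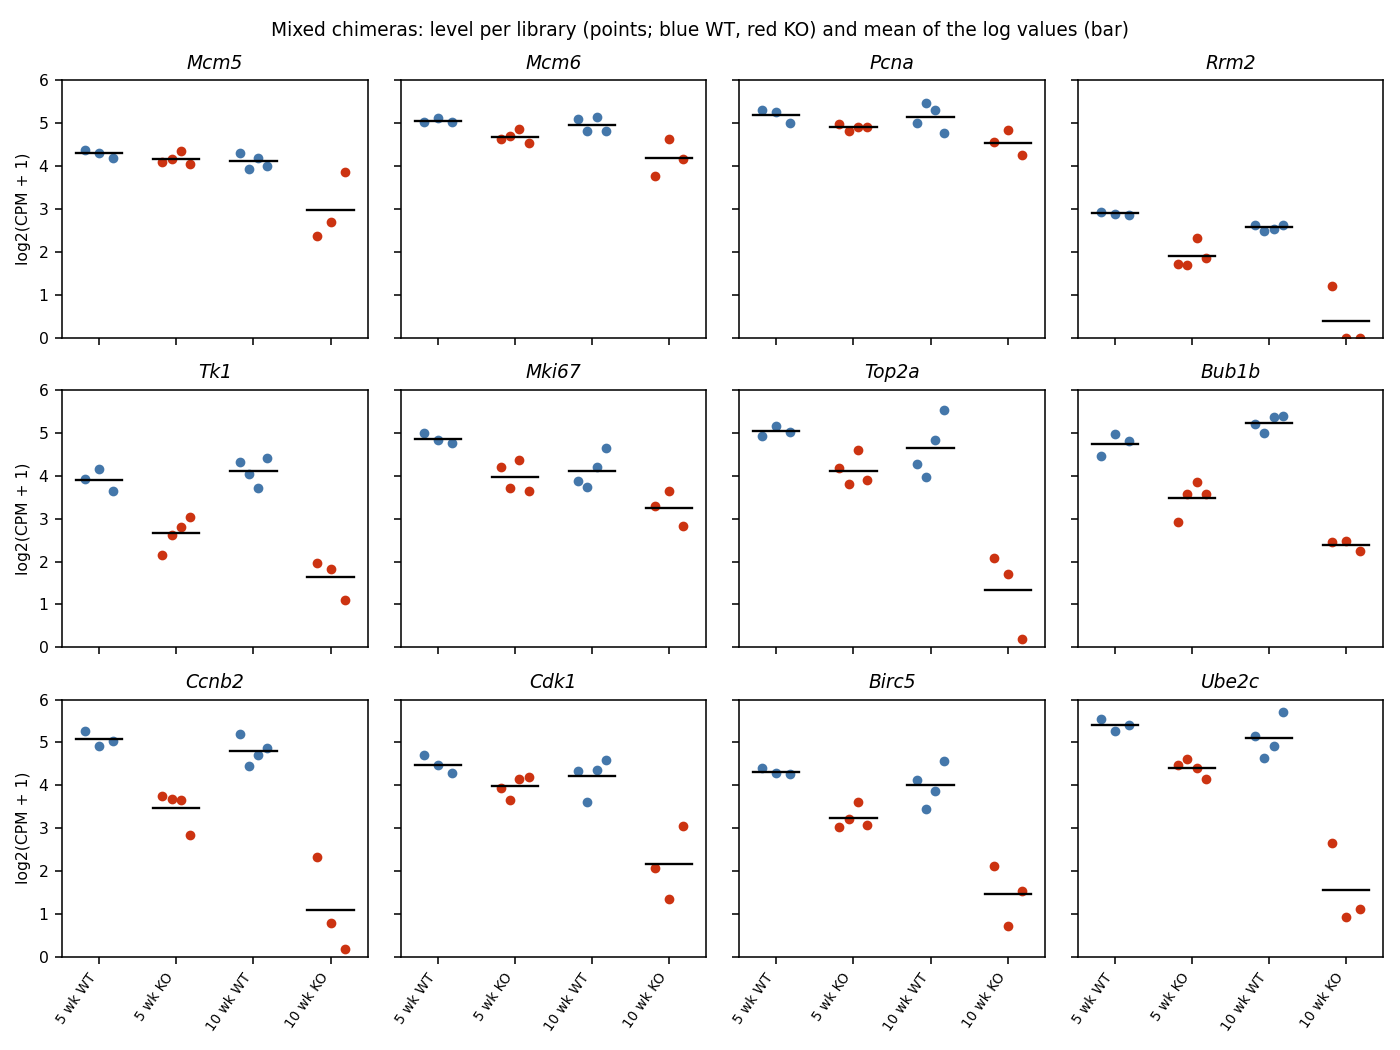
Log2(CPM + 1) (y axis) of 12 genes in each chimera library, wild-type donor cells in blue and Cebpb-deleted donor cells in red, at 5 and 10 weeks. Ccnb2, Ube2c, Birc5 and Top2a sit lower in 10-week than in 5-week deleted cells, and Mki67 falls in both genotypes.

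Lip/Lip cells keep Cebpb RNA (log2 fold change 0.63 in CD11b low cells), and LIP is the name of the short C/EBPβ isoform, which lacks the activation domains. Of 39 that passed, 34 fell in Lip CD11b low cells (16 replication, 18 mitosis; medians -1.17 and -1.25), beside 11.8% of 8918 genes, and 33 in CD11b high cells (17 and 16), beside 18.5%, against the same 3 controls. Among genes with counts above the filter in both groups, 23 of 26 fell in CD11b low and 20 of 23 in CD11b high cells. Mcm6 was at 65.2, 59.3 and 53.0 CPM in controls, 22.2, 18.8, 26.0 and 23.3 in CD11b low and 14.6, 15.4, 8.48 and 9.65 in CD11b high cells. The 3 groups did not overlap, and the change was -1.36 ± 0.18 in CD11b low (adjusted p = 4.23e-08) and -2.30 in CD11b high cells (adjusted p = 1.2e-12). Mcm5 (-1.89 ± 0.27, adjusted p = 3.21e-07), Tk1 (-1.64 ± 0.27, adjusted p = 4.43e-06), Ndc80 (-2.16) and Uhrf1 (-1.96) fell in CD11b low cells, and Bub1b, among the deepest falls of the knockouts, by 0.84.

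Between both Lip fractions Mcm6, Cdk1 and Bub1b were lower and Cenpf higher (1.12) in CD11b high cells, beside 19.5% of genes called. Against the CD11b low knockout, the change of Bub1b was the 1 difference called (Lip minus knockout 2.24 ± 0.66, adjusted p = 0.0475). That was 1 of 46 genes tested, near the 2.48% of all genes called in that direction. Alveolar macrophage markers summed to 11200 to 15200 CPM in Lip CD11b low and 3860 to 5400 in CD11b high cells, beside 26400 to 28600. In the ATAC-set Lip libraries 44 genes passed and 1 was called, Mcm5 (30.4, 31.2, 38.6 and 45.9 CPM in controls, 18.4, 11.4, 15.6 and 24.8 in Lip; -1.05 ± 0.29, adjusted p = 0.0409), beside 1.84% of 9491 genes. Mki67 overlapped widely there, at 28.6 to 109 against 14.6 to 79.5.

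Levels at E18 were set against those of adult wild-type cells. In premature macrophages 43 of 48 genes were higher at E18 (18 replication, 25 mitosis; median 2.11), beside 21.4% of 8950 genes, 36 of them among the 41 with counts above the filter in both groups. Birc5 was at 131 to 227 CPM at E18 and 6.82 to 23.6 in adults (3.55 ± 0.30, adjusted p = 2.63e-07), and Mcm5 at 103.5 to 206 against 6.82 to 26.4 (3.09, adjusted p = 4.61e-06). E2f1, Pcna, Mki67, Kif23 and Cenpf were not called. Adult cells came from lavage and fetal ones from whole lung, so age and source cannot be told apart. Markers of other cells were also higher at E18: erythroid markers summed to 1480 to 8000 CPM beside 4.09 to 156 in adults, monocyte markers to 435 to 1030 beside 2.73 to 26.5, and lymphocyte markers to 41.6 to 44.3 beside 0 to 0.68, and their part was not tested.

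E18 premature macrophages without Cebpb lost a part of these transcripts. Of 51 that passed, 15 fell (8 replication, 7 mitosis; medians -0.67 and -0.50), beside 9.55% of 10047 genes. Cdt1 was at 80.6, 146 and 106 CPM in wild type and 55.8, 64.8, 49.1 and 37.3 in knockouts (-1.10, adjusted p = 0.00485), Rrm2 at 33.5, 52.9 and 38.9 against 20.4, 31.0, 16.6 and 19.5 (-0.93 ± 0.28, adjusted p = 0.026), and Prc1 at 68.4, 36.5 and 38.9 against 25.4, 23.3, 14.7 and 11.8 (-1.35 ± 0.32, adjusted p = 0.00692). Those 3 did not overlap between groups. Mki67 (138 to 160.4 against 122 to 153), Top2a (168 to 189.5 against 146 to 197) and Ccnb2 (119.6 to 138 against 116 to 189.5) did overlap and were not called (log2 fold changes -0.17, -0.04 and 0.33). The replication sum was 1371 to 1879 CPM in wild type and 931 to 1354 in knockouts, just apart, and the mitosis sum 2336 to 2732 against 1980 to 2372, overlapping. This depended on the scaling: without TMM factors the replication sums overlapped (1201 to 2036 against 928 to 1312) and the mitosis sums did not (2395 to 2765 against 1973 to 2297). The 15 became 3 without wild-type replicate 2 and 4 without wild-type replicate 3.

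**Figure D5:**
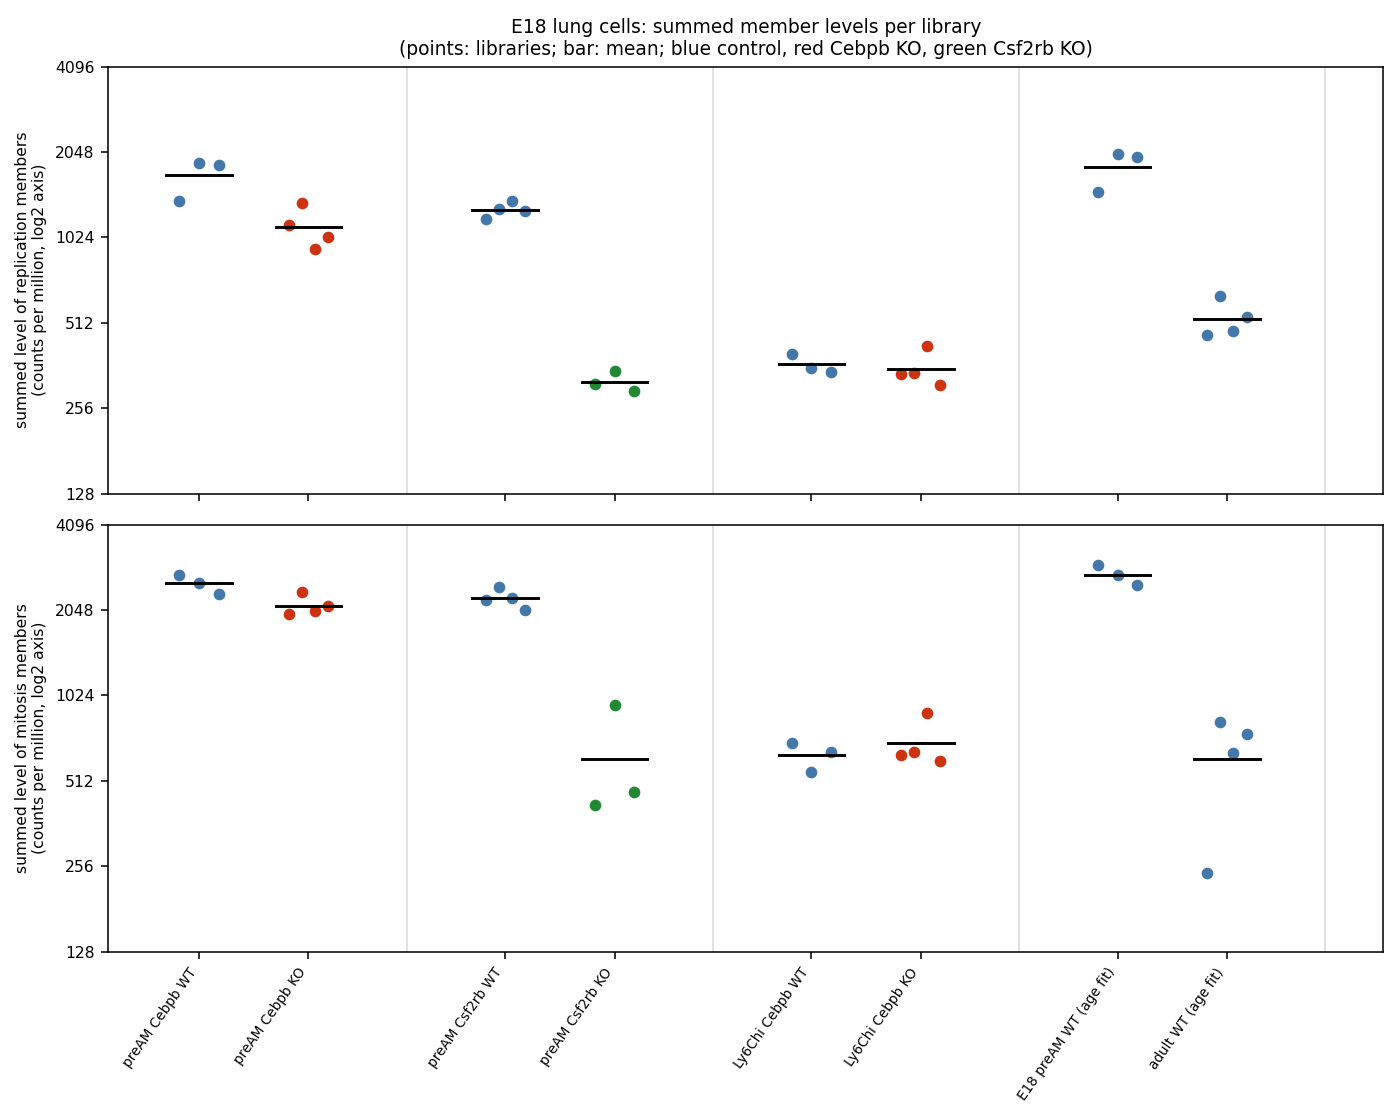
Summed CPM of replication and of mitosis genes (y axis, log2 scale) in E18 premature macrophages of Cebpb and Csf2rb genotypes, in E18 Ly6C high monocytes, and in E18 and adult wild-type cells of the age comparison (points libraries, bars means). Csf2rb-/- cells lie far below their controls. E18 Cebpb-/- cells lie below theirs in the replication sum and overlap with them in the mitosis sum, and the monocyte groups overlap.

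The knockout effect at E18 was less negative than the mean adult effect over the facility and sex strata for 25 genes (7 replication, 18 mitosis), beside 9.41% of genes in that direction. Age, source of the cells (whole lung or lavage) and experiment differ together here and cannot be told apart. The differences were 2.05 ± 0.27 for Mki67 (adjusted p = 3.67e-06), 2.75 for Bub1b (adjusted p = 1.44e-06), 2.51 for Rrm2, 2.01 for Tk1, 1.87 for Top2a and 1.34 for Mcm5. The adult strata were not alike. The median log2 fold change was -0.57 at E18, -0.68 in males, and -1.82 and -2.19 in facility 1 and facility 2 females. In the other adult deletions it ran from -0.65 (CD11c-Cre) to -1.97 (10-week chimeras).

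The same fetal cell type was measured without Csf2rb. Of 51 genes that passed, 27 fell (13 replication, 14 mitosis; medians -1.83 and -2.16), beside 11.4% of 9422 genes, 18 of them among the 38 with counts above the filter in both groups. Cdk1 was at 86.4, 93.9, 77.5 and 72.5 CPM in Csf2rb+/+ and 1.79, 17.8 and 10.1 in Csf2rb-/- cells, far apart (-3.09 ± 0.59, adjusted p = 0.00503). Cdc45, a part of the replicative helicase, was at 24.9 to 38.7 in controls and had no count in the 3 knockouts, so it was at least 67.2-fold lower. Cdc20 fell by 4.85 (adjusted p = 0.000762), Birc5 by 4.22, Tk1 by 3.40 and Mki67 by 1.58, from 104 to 175 CPM to 21.7 to 76.1. The second knockout library held the highest mitosis sum of its group, 951 CPM beside 420 and 469, and 39 genes were called without it. Erythroid markers summed to 7390 to 10500 CPM in these knockouts beside 2100 to 3710, and monocyte markers to 2400 to 3190 beside 169 to 409 (Fcnb at 0). Their part was not tested.

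In E18 Ly6C high monocytes, where Cebpb fell by 5.22, edgeR called none of the 47 genes that passed, beside 3.62% of 9214 genes (1526 genes had an unadjusted p under 0.05), and DESeq2 called none either. The median was 0.08. Mcm5 was at 30.0, 30.2 and 22.9 CPM in wild type and 32.7, 28.5, 38.0 and 17.7 in knockouts, and Mki67 at 25.9, 23.7 and 32.2 against 31.8, 27.8, 47.5 and 36.0. Both overlapped, as did both sums (replication 345 to 399 against 310 to 424 CPM, mitosis 549 to 696 against 604 to 891).

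Further genes of the pathway were taken from lists made with results known. Averaged over the facility and sex strata, 31 of 47 further replication genes fell and 1 rose (median -0.66), and 31 of 43 further mitotic genes fell and 1 rose (median -1.13), beside 22.1% of all genes lower and 23.4% higher, among them Pbk (-3.89) and the checkpoint adaptor Clspn (-3.50). At 10 weeks in chimeras 19 of 46 and 26 of 43 fell, beside 21.1% of all genes. At E18 in Cebpb knockouts 3 of 48 and 6 of 46 fell, near the 9.55% of all genes. In monocytes none of 41 and 37 was called, beside 3.62%. In the strata 6 of 22 G1 cyclins, kinases and inhibitors rose, beside 23.4% of all genes, and 9 fell, beside 22.1%. Among 17 RB, E2F and DREAM regulators of the cell cycle, 2 rose and 5 fell (median -0.11), beside the same shares. Cdkn1a, the p21 inhibitor of cyclin-dependent kinases, was at 387 to 908 CPM in wild type and 1185 to 3321 in knockouts (1.94 ± 0.13, adjusted p = 1.9e-09). It also rose in ATAC-set knockouts (2.83), with CD11c-Cre (0.76), at both chimera times (0.59 and 1.22), at E18 (1.26, adjusted p = 0.00205) and in monocytes (1.02, adjusted p = 0.0106), and was not called with LyzM-Cre (1.18, adjusted p = 0.0581), in Lip CD11b low (-0.06, adjusted p = 0.854) or Csf2rb-/- cells (0.38, adjusted p = 0.198). Ccnd1, the cyclin D1 of growth factor signals, rose as well, from 0.144 to 5.03 up to 10.8 to 105.5 CPM (5.24 ± 0.37, adjusted p = 7.87e-09), while Ccnd3 fell (-1.44). Of the growth signal genes 10 of 17 rose, beside the 23.4% of all genes, among them the growth factor gene Csf1 (5.31, adjusted p = 3.69e-13), and 4 fell, among them Csf2rb (-0.65) and Myc (-0.59). At 10 weeks in chimeras Myc rose (2.25).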

How the data were processed

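RNA was measured in 99 of the 122 samples of the series, and the peak lists of 2 C/EBPβ ChIP and 5 ATAC samples were used. Groups came from titles and source names. Members and lists were chosen with earlier results of these data known. The authors deposited whole counts per gene, and the submitters' processing notes list GRCm38, STAR 2.6.1a and featureCounts 1.6.3. Collapse of molecule barcodes is not stated in the sources used here, so these may be read counts. The deposited peak lists give per peak a score, a fold ratio over background and −log10 p and −log10 q values, with MACS2 2.2.7.1 listed per the submitters' processing notes. Depth is given in the report, and floors cover counting error only.

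Each comparison was fitted on its own experiment within 1 table in R 4.3.3 with edgeR 4.0.16 (TMM, filterByExpr with a minimum count of 10, robust quasi-likelihood F test, Benjamini-Hochberg over all genes, called at an adjusted p under 0.05). SE is the fold change over the root of F. Effects were compared by interaction contrasts, and the strata mean averaged the 3 knockout effects. The fits were tested on simulated data. A gene without counts in 1 group is given as a bound against 3 counts over that group. Alternatives were DESeq2 1.42.0, RLE factors, no filter, a replicate block and leaving out each library. Same-numbered libraries deviated together, with every correlation over 0.1, in 10-week chimeras (0.127 to 0.147) and between the Lip fractions (0.105 to 0.246). The main fits have no block.

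Named genes were the targeted gene, the members (10 representatives, and the largest called changes of each comparison) and called genes of the further lists, largest first. Genes that overlap on opposite strands cannot be told apart, since the strand setting of counting is not given here.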

Additional observations from a re-analysis of the deposited data

Results flagged for a closer look

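Of 26 sums over replication or mitosis genes in groups of 4 to 10 libraries, 2 held a library whose gap to its nearest neighbour was wide for the range of its group, where chance gives about 1 in 20. CD11b low knockout replicate 2 had a mitosis sum of 485.7 CPM, and Ly6C high knockout replicate 3 one of 890.6 CPM.

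Differences between effects were flagged where the difference itself was called by edgeR (adjusted p under 0.05). The knockout effect differed between facilities for 2 genes, Mki67 (-1.89, facility 2 minus facility 1) and Prc1 (-7.03, a fitted value for a gene without counts in facility 2 knockouts). These 2 of 51 were near the 4.17% of all genes called lower. The effect differed between males and the mean of females for 18 genes, beside 6.16% of all genes in that direction. Representatives were Pcna (1.23), Rrm2 (4.31), Tk1 (2.04), Mki67 (1.30) and Top2a (1.83). Between 10-week and 5-week chimeras 16 genes differed, beside 5.97% of all genes in that direction, with Tk1 (-1.52), Top2a (-2.86), Ccnb2 (-2.58), Cdk1 (-1.73) and Birc5 (-1.95). Between E18 knockouts and the mean of the adult facility and sex strata 25 differed, beside 9.41% of all genes in that direction. Representatives were Mcm5 (1.34), Rrm2 (2.51), Tk1 (2.01), Mki67 (2.05), Top2a (1.87), Ccnb2 (1.24), Cdk1 (1.13) and Birc5 (1.19). Age, cell source and experiment cannot be told apart in that contrast. Between Lip and knockout CD11b low cells 1 of 46 differed, Bub1b (2.24), near the 2.48% of all genes in that direction.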

How the results depend on the processing

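The counts of called genes were recomputed with DESeq2, RLE factors, no filter, a replicate block and each library left out. No called gene of the list reversed its direction in any of them. Of the values followed, 7492 kept their side of the threshold, 797 lost it and 82 gained it. Losses were followed for every called gene but gains for the 10 representatives alone, so gains are undercounted. With the replicate block the count was 7 in CD11b low knockouts (13 without it), 1 between CD11b fractions (0), 2 in Cebpb+/- females (4), 20 with LyzM-Cre (13), 1 in wild-type chimeras over time (2), 1 between facilities (2), 9 between sexes (18) and 9 between chimera times (16). The labels do not say whether same-numbered libraries in these comparisons share an animal. Their correlations were not all over 0.1 (between CD11b fractions -0.0522 to 0.171), except those of the 10-week chimera libraries. In facility 1 females and LyzM-Cre, where same-numbered libraries deviated apart (correlations of -0.165 and -0.105), crossed numbers, an alternative added after seeing the data, gave 36 and 26 calls. Over all genes they gave 2290 and 747. The block moved no other count by over 1.5 times. Without the filter the counts were 33 in CD11b high knockouts (21), 1 between CD11b fractions, 10 in Cebpb+/- females, 7 in males (4), 25 with LyzM-Cre and 6 between facilities. DESeq2 gave 1 between CD11b fractions, 10 in Cebpb+/- females, 7 in males, 2 in ATAC-set Lip cells (1) and 5 between facilities, and RLE factors gave 1 in wild-type chimeras. With each library left out in turn the counts ran from 6 to 14 in CD11b low knockouts, 0 to 2 between CD11b fractions, 1 to 8 in Cebpb+/- females, 1 to 2 in males, 3 to 36 with LyzM-Cre, 10 to 29 with CD11c-Cre, 10 to 15 in 5-week and 44 to 47 in 10-week chimeras, 3 to 19 in E18 Cebpb knockouts, 20 to 39 in Csf2rb-/- cells, 0 to 4 in ATAC-set Lip cells, 0 to 1 in wild-type chimeras, 1 to 10 between facilities, 7 to 28 between sexes, 9 to 30 between chimera times and 0 to 1 between Lip and knockout. In the last 100 bases before the start, E2F letters stood in 1 of 20 replication windows, beside 1.48% of windows of tested genes. CHR letters stood there in 9 of 25 mitosis windows (36%), beside 3.21%. The causes were not tested. Except for the crossed numbers, no count over all genes stands beside these counts of called genes. A count of the list can therefore move with that of all genes. Depth limits the rarest genes, which lie near 3 counts in shallow libraries, and groups of 2 libraries limit the folds that can be called.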
